A study of Mus musculus with 6 samples.

Results

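The semaphorin, ephrin, Slit and netrin genes of a mouse embryonic fibroblast line labelled MEF Nf2-/- were compared with those of its control line, labelled MEF Nf2fl/fl. The members were taken by gene symbol, with earlier results of these data known. They were the semaphorins, the A and B ephrins, the Slits and netrins 1 and 4 as ligands, and the plexins, neuropilins, Eph receptors, Robos, Unc5 proteins, Dcc and neogenin (Neo1) as receptors, with the Slitrk genes left out. The deposited table held 66 such genes among its 26231, of which 33 were ligands and 33 receptors. A gene was tested where it reached at least 1 RPKM (a read number divided by exon length and by library size) in at least 3 libraries. This kept 21 ligands and 20 receptors, 41 of the 11067 genes tested in all. Of these 41, 3 passed through a single line, namely Sema3d through the line labelled MEF Nf2-/- and Sema5a and Slit3 through the control, so those 3 could hardly have been equal between the lines.

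Nf2 encodes Merlin, a protein that links the cell membrane to the actin cytoskeleton and acts upstream of the Hippo pathway, and the sequencing asked how the fibroblast transcriptome differs when it is lost. Both lines came from Nf2fl/fl embryos of the FVB strain, about 14 days old by the labels, were immortalized with the SV40 large T antigen and carry a GFP lentivirus. The control received the vector with GFP under the CMV promoter, and the other line received CMV-Cre with GFP, so Cre was not restricted to a cell type. Cells were kept in 10% FBS and held without serum for 24 h before RNA was taken. Each line gave 3 libraries, numbered 1 to 3, and values below are listed in that order. There is 1 line of each kind, and nothing states that its replicates were separate cultures, so p-values measure the spread between these libraries only, which may be technical.

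Nf2 itself was read first. It stood at 14.3, 13.7 and 13.1 RPKM in the control libraries and at 15.4, 12.9 and 13.9 RPKM in those labelled MEF Nf2-/-. The ranges overlapped, and the difference was 0.03 ± 0.10 on the log2(RPKM + 1) scale (SE, n = 3 and 3, exact two-sided permutation p = 0.8, where 0.1 is the smallest p this design allows). The value covers the whole gene, so the loss of a single exon would not be seen, and the Nf2 RNA level does not show which line lost Nf2. Every direction below therefore refers to the library labels. The depth, estimated from the smallest step between values, was 13428884 to 19242432 reads in replicates 1 and 2 of both lines and 61103424 and 72910881 reads in replicate 3, which carries a 2018 mark. Replicate 2 stood apart in both lines. Both of its libraries lay above or below the other 4 in 46.6% of all tested genes, and in 19 of the 41 members (46.3%). In bulk RNA, fewer cells of a type and less RNA per cell cannot be told apart.

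Guidance genes take their name from growing axons, which they steer by attraction or repulsion, and the same ligand and receptor pairs act in fibroblasts and in vessels on cell spreading, migration and the sorting of cells at boundaries. Secreted class 3 semaphorins bind neuropilins and signal through plexins, and Sema3e can bind plexin D1 directly. Slits bind Robo receptors, netrins bind Dcc, neogenin and Unc5 receptors, and ephrins, which stay on the cell surface, bind Eph receptor tyrosine kinases on the neighbouring cell. Most of these receptors act on the actin cytoskeleton.

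The windows of 4 promoters are shown because the results turn on these genes: Sema3e, Slit2, Epha1 and Epha7 are the members that differed between the lines in the test. Each window runs from 250 bases before to 50 bases after the start site, 5′ to 3′ on the gene's strand, and was taken from RefSeq (GRCm38.p6). Capitals mark GGAATG, the motif of TEAD factors, in either direction (CATTCC where it lies on the other strand) and TATAAA, the TATA box. The windows lie at chr5:14025026-14025325 (Sema3e, plus strand), chr5:47982905-47983204 (Slit2, plus strand), chr6:42373219-42373518 (Epha1, minus strand) and chr4:28812881-28813180 (Epha7, plus strand, the first of its 2 listed start sites).
Sema3e: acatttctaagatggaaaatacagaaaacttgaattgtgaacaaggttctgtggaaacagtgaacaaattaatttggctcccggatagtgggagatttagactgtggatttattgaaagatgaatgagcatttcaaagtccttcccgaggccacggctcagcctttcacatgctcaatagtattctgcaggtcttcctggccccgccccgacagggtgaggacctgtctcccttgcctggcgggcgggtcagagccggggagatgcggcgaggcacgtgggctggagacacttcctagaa
Slit2: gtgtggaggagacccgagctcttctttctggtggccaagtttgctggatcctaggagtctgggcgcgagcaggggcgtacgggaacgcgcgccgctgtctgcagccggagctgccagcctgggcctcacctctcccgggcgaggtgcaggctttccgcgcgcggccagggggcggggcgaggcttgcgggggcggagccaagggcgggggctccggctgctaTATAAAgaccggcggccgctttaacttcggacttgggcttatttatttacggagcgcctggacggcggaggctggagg
Epha1: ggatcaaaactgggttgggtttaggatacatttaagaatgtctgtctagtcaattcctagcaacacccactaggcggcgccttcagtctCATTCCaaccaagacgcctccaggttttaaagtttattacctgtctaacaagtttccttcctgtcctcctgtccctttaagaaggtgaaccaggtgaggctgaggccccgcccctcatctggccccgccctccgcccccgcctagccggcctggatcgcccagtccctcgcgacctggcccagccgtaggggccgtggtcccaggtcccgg
Epha7: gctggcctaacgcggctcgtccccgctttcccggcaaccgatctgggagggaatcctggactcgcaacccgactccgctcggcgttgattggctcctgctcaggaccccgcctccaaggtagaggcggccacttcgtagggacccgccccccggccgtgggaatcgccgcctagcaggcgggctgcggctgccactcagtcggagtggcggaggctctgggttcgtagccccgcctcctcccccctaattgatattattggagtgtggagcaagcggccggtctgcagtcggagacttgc

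The Epha1 window held 1 GGAATG match, at position -161 from the start site, and the Slit2 window held 1 TATAAA match, at position -28, while the Sema3e and Epha7 windows held neither. Of all 32851 mouse promoter windows of this length, 14.7% held GGAATG, 13.6% held TATAAA, 7.81% held TGANTCA, the motif of AP-1, and 35.7% held GGGCGG, the GC box, each on either strand. Windows were listed for 56 of the 66 members, 72 in all, and among these GGAATG stood in 8, TATAAA in 2, TGANTCA in 3 and GGGCGG in 52. None of the 4 printed windows held TGANTCA, and all 4 held the GC box. These are matches of letters and not measurements of binding.

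Of the 41 tested members, 4 passed an adjusted p of 0.05 in limma, and all 4 were higher in the libraries labelled MEF Nf2-/-. They were the ligands Sema3e and Slit2 and the receptors Epha1 and Epha7. The share was 9.76% of members, against a background of 1.06% of all tested genes (117 of 11067) in either direction, 0.479% in the higher and 0.578% in the lower direction. The other 37 members did not pass. As the members were chosen with earlier results of these data known, the shares in this paragraph only describe this set. With the replicate number as a block, 11 members passed, against a background of 7.53% (2.99% higher and 4.54% lower). The additions were Sema3d, Epha4 and Plxnb1, which were higher, and Sema4b, Sema5a, Slit3 and Plxna3, which were lower. The 3 libraries of the lines did not overlap for 13 members (31.7%, background 15.1%), 8 of them higher (background 7.6%) and 5 lower (background 7.52%). These counts include Sema3d, Sema5a and Slit3. Without those 3, and with the background taken over the 10978 tested genes that reached 1 RPKM in a library of each line, 4 of 38 members passed (background 0.802%), 8 passed with the block (background 6.99%) and 10 did not overlap (background 14.4%), 7 of them higher (background 7.35%) and 3 lower (background 7.08%). This count was chosen after seeing the data. The median member lay near 0, with a median log2 fold change of 0.06 for ligands and 0.08 for receptors beside -0.01 over all tested genes. Fold changes on the log2(RPKM + 1) scale understate the change of low genes, so ratios of mean RPKM are given beside the called members and beside Sema3d, Sema5a and Slit3.

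Sema3e kept its call when any 1 library was left out. Slit2, Epha7 and Epha1 lost theirs without control replicate 1 or 3 and without replicate 1 or 3 of the line labelled MEF Nf2-/-, with limma adjusted p of up to 0.130, 0.122 and 0.171, and Epha1 also without replicate 2 of that line. Their directions did not change.

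**Figure D1:**
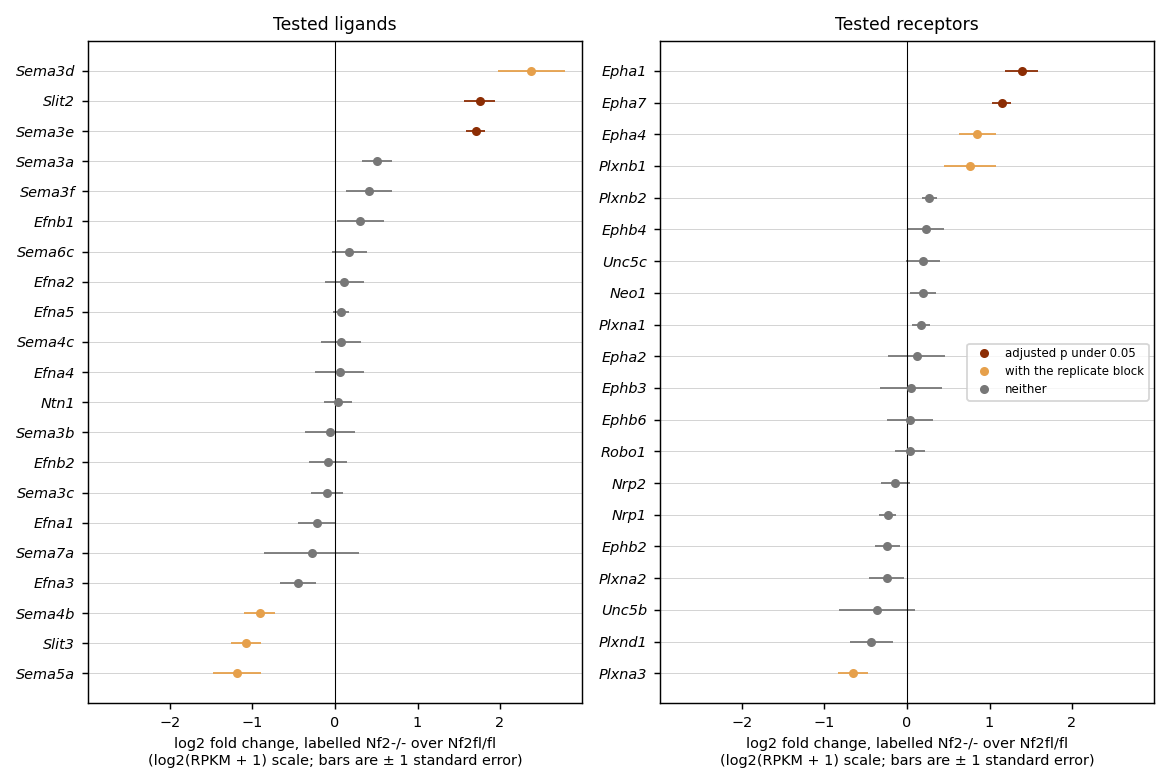
Log2 fold changes of the 21 tested ligands (left) and 20 tested receptors (right), labelled MEF Nf2-/- over MEF Nf2fl/fl on the log2(RPKM + 1) scale, with bars of 1 standard error from limma (n = 3 and 3 libraries). Dark points passed an adjusted p of 0.05 (Sema3e, Slit2, Epha1 and Epha7), light points did not pass in that fit but passed with the replicate block (7 members), and most of the rest lie close to 0.

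Among the ligands, the class 3 semaphorins held both the lowest adjusted p (Sema3e) and the largest fold change (Sema3d). Sema3e, a secreted ligand best known for guiding vessels and axons, stood at 1.72, 1.29 and 1.26 RPKM in the control libraries and at 7.51, 6.57 and 6.61 RPKM in those labelled MEF Nf2-/-. All 3 of the latter lay above all 3 controls, with little spread inside either line. The ratio of the mean RPKM values was 4.85, and the log2 fold change was 1.71 ± 0.11 (SE, n = 3 and 3, limma adjusted p = 0.00392). With a single library left out, its limma adjusted p was at most 0.0442.

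Sema3d, its close relative, was low in the control line. It read 0.173, 0.160 and 0.350 RPKM in the control libraries against 7.63, 2.16 and 8.43 RPKM in those labelled MEF Nf2-/-. The lines did not overlap, but replicate 2 was well below the other 2 libraries of its line. The mean RPKM was 26.7 times that of the control, with a log2 fold change of 2.38 ± 0.41 (SE, n = 3 and 3) that missed the threshold (limma adjusted p = 0.0598) and passed it with the replicate block (adjusted p = 0.0145). The control values rest on an estimated 25.9 and 184 reads in replicates 2 and 3, and on fewer in replicate 1.

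Both genes lie on chromosome 5, in a stretch that also holds Sema3a. In GRCm38 (GENCODE vM21), Sema3d occupies chr5:12383385-12588948, Sema3a chr5:13125414-13602565 and Sema3e chr5:14025276-14256689, all on the plus strand, with gaps of 536.5 and 422.7 kb between them. From the start of Sema3d to the end of Sema3e, 1.87 Mb, the table held 14 genes, of which 5 were tested: the 3 semaphorins and the predicted genes Gm10481 and Gm43719, which reached at most 1.39 and 1.70 RPKM and overlapped between the lines. Sema3a, which repels axons through neuropilin 1, read 6.22, 10.7 and 7.51 RPKM in the control libraries and 11.6, 12.4 and 11.3 RPKM in the other line. Its lines did not overlap either, yet the log2 fold change of 0.51 ± 0.18 (SE, n = 3 and 3) did not pass (limma adjusted p = 0.374, and 0.0673 with the block). Sema3c, further along the same chromosome at chr5:17574281-17730268, overlapped between the lines, with 8.51 to 10.9 RPKM in the control and 6.87 to 12.2 RPKM in the other.

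Sema3f, a ligand of neuropilin 2, also overlapped, at 6.41 to 9.28 RPKM against 7.25 to 16.8 RPKM. Summed over the 7 class 3 genes, the level was 28.3 to 30.4 RPKM in the control libraries and 36.0 to 54.9 RPKM in those labelled MEF Nf2-/-. The ranges of the sum, which includes Sema3d and Sema3e, did not overlap.

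Of the 5 tested semaphorins of classes 4 to 7, none was called over the 6 libraries without the block, and Sema4b and Sema5a were lower with it (background 7.53%). Both also passed without the block when control replicate 2 was left out (limma adjusted p = 0.0276 and 0.0125), and Sema5a passed the filter through the control line alone. Sema4b, a transmembrane semaphorin, stood at 4.65, 2.72 and 4.43 RPKM in the control libraries and at 1.77, 1.23 and 1.76 RPKM in those labelled MEF Nf2-/-. Its lowest control library lay above every library of the other line. The log2 fold change of -0.91 ± 0.19 (SE, n = 3 and 3) did not pass over the 6 libraries without the block (limma adjusted p = 0.112) and passed with it (adjusted p = 0.00615). Sema5a, which carries thrombospondin repeats beside its semaphorin domain, read 3.82, 1.14 and 2.90 RPKM against 0.580, 0.380 and 0.570 RPKM. Again no library overlapped, although control replicate 2 lay closer to the other line than to its own partners, and the log2 fold change was -1.19 ± 0.29 (limma adjusted p = 0.176, and 0.0283 with the block). The control mean was 5.14 times that of the other line, and the log2 fold change with a pseudocount of 0.1 was -2.02. Summed over the 13 genes of classes 4 to 7, the level was 14.0 to 17.2 RPKM in the control and 11.4 to 11.98 RPKM in the other line.

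Sema7a, the GPI-anchored semaphorin, stood apart in replicate 2. It read 0.968, 4.49 and 1.95 RPKM in the control libraries and 0.469, 4.81 and 1.07 RPKM in those labelled MEF Nf2-/-, with replicate 2 highest in both and the lines overlapping. Sema4c, Sema6c and Sema3b overlapped between the lines, between 0.619 and 4.33 RPKM.

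Of the 2 tested Slits, Slit2 was called and Slit3 was not. Slit2, a large secreted ligand of the Robo receptors, stood at 0.964, 2.05 and 1.31 RPKM in the control libraries and at 8.12, 7.26 and 6.03 RPKM in those labelled MEF Nf2-/-. Every library of the latter was well above every control, with a ratio of means of 4.95 and a log2 fold change of 1.75 ± 0.19 (SE, n = 3 and 3, limma adjusted p = 0.0217). Slit3 read 1.54, 1.20 and 2.44 RPKM in the control and 0.301, 0.299 and 0.219 RPKM in the other line. The lines did not overlap, and the log2 fold change of -1.08 ± 0.18 narrowly missed the threshold (limma adjusted p = 0.0553) and passed it with the block (adjusted p = 0.0194). The control mean was 6.34 times that of the other line, and with a pseudocount of 0.1 the log2 fold change was -2.25 (limma adjusted p = 0.0384). Slit3 passed the filter only through the control line, where it is higher, so its direction was partly fixed by the filter. Slit1 reached at most 0.175 RPKM.

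The 3 Slit genes together summed to 2.58 to 3.85 RPKM in the control libraries and to 6.29 to 8.48 RPKM in the others. Slit2 was 34.0% to 61.1% of that sum in MEF Nf2fl/fl and 93.9% to 95.9% in the libraries labelled MEF Nf2-/-, while Slit3 was 35.7% to 63.6% and 3.48% to 3.87%. Slit2 lies at chr5:47983138-48307733 and Slit3 at chr11:35121224-35708507 (GRCm38, both plus strand).

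Each of these genes holds a miR-218 hairpin in an intron, on its own strand. Mir218-1 lies in Slit2 at chr5:48223942-48224051 and Mir218-2 in Slit3 at chr11:35616816-35616925. The mature sequences from RefSeq (GRCm38.p6) are shown because both hairpins give the same 5p arm and lie in the Slit genes described above. Capitals mark the seed, bases 2 to 8.
miR-218-5p (both): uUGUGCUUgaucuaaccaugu
miR-218-1-3p: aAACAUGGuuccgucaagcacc
miR-218-2-3p: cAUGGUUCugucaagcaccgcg

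The 5p arm is shared, and the 3p arms have different seeds. Mature miRNAs were not measured in these libraries, so only the host genes have values. Of all 66 members, 6 held a hairpin on their own strand.

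Ephrins and the tested netrin showed no call in either fit. Efnb2, the most abundant ligand and the partner of EphB receptors, stood at 22.1, 31.2 and 20.9985 RPKM in the control libraries and at 18.8, 31.3 and 20.4 RPKM in those labelled MEF Nf2-/-. Replicate 2 was highest in both lines, and the lines overlapped, with a log2 fold change of -0.08 ± 0.23 (SE, n = 3 and 3, limma adjusted p = 0.985). Efnb1 also had replicate 2 highest in both lines, at 5.87, 12.5 and 6.76 RPKM against 8.82, 13.4 and 8.61 RPKM. Of the 5 A ephrins, all tested, Efna4 (4.60 to 11.4 RPKM over the 6 libraries) and Efna5 (5.84 to 7.12 RPKM) were highest, and the log2 fold changes of the 5 ran from -0.45 to 0.11. Efna4 shares 10.5% of its exon bases with 4731419I09Rik, and Efna3 shares 14.1% with Gm15998. Ntn1, the tested netrin, read 2.18 to 3.80 RPKM in the control and 2.67 to 3.20 RPKM in the other line.

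**Figure D2:**
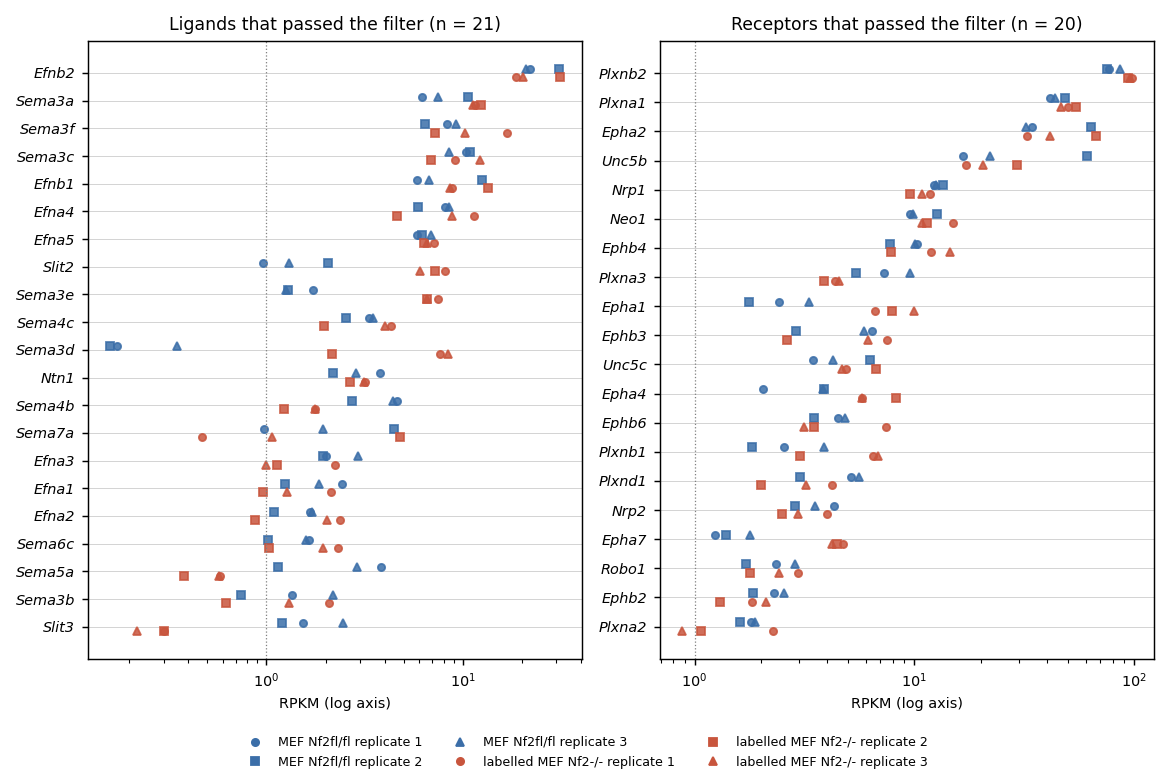
RPKM of every tested ligand (left) and receptor (right) in each of the 6 libraries, on a log axis, ordered by mean, with the dotted line at 1 RPKM. Blue marks MEF Nf2fl/fl and red the libraries labelled MEF Nf2-/-, and circle, square and triangle mark replicates 1, 2 and 3. Plxnb2, Plxna1 and Epha2 lie at the top of the receptors, and Slit2, Sema3e, Sema3d, Epha1 and Epha7 show red points clear to the right of blue ones.

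Among the receptors, the EphA tyrosine kinases held both calls. Epha1 stood at 2.42, 1.77 and 3.32 RPKM in the control libraries and at 6.59, 7.87 and 9.93 RPKM in those labelled MEF Nf2-/-. The lowest of the latter lay well above the highest control. The ratio of means was 3.25 and the log2 fold change 1.39 ± 0.20 (SE, n = 3 and 3, limma adjusted p = 0.0399). Of the exon bases of Epha1 (chr6:42358487-42373268, minus strand), 6.01% are shared with Zyx, the gene of the focal adhesion protein zyxin, and whether strand was used in counting is not given in the sources used here. Zyx read 72.6, 132 and 88.0 RPKM against 89.2, 217 and 140 RPKM, with overlapping lines and a log2 fold change of 0.56 ± 0.36 (limma adjusted p = 0.774, and 0.0375 with the block), and its part in the Epha1 values was not tested.

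Epha7 (chr4:28813131-28967499, plus strand), whose exons overlap no other gene, read 1.24, 1.39 and 1.78 RPKM in the control libraries and 4.74, 4.44 and 4.21 RPKM in those labelled MEF Nf2-/-. The lines were far apart relative to the spread inside them, with a ratio of means of 3.03 and a log2 fold change of 1.15 ± 0.12 (SE, n = 3 and 3, limma adjusted p = 0.0167). Epha4, which binds ephrins of both classes, read 2.05, 3.89 and 3.84 RPKM against 5.79, 8.25 and 5.75 RPKM. Here too the lines did not overlap, and the log2 fold change of 0.85 ± 0.22 passed only with the block (limma adjusted p = 0.205, and 0.0241 with the block). Epha3, which stayed under the filter and was not tested, was lower without overlap. It read 0.265, 0.279 and 0.515 RPKM in the control libraries and 0.223, 0.0716 and 0.0929 RPKM in the other line.

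Epha2, the most abundant EphA receptor of these cells, was not called. It stood at 34.3, 63.8 and 32.1 RPKM in the control libraries and at 32.4, 67.1 and 41.5 RPKM in those labelled MEF Nf2-/-, and replicate 2 was highest in both lines. The log2 fold change was 0.12 ± 0.34 (SE, n = 3 and 3, limma adjusted p = 0.987). As a share of the summed EphA level, Epha2 was 77.3% to 89.7% in the control and 65.2% to 76.5% in the other line, ranges that did not overlap, while the EphA sums themselves did (40.3 to 71.1 RPKM against 49.8 to 87.7 RPKM). The 4 EphB receptors were all tested and none was called, with log2 fold changes from -0.24 to 0.23. Ephb4, a receptor of Efnb2, was the highest of them at 7.74 to 10.3 RPKM in the control and 7.81 to 14.5 RPKM in the other line.

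**Figure D3:**
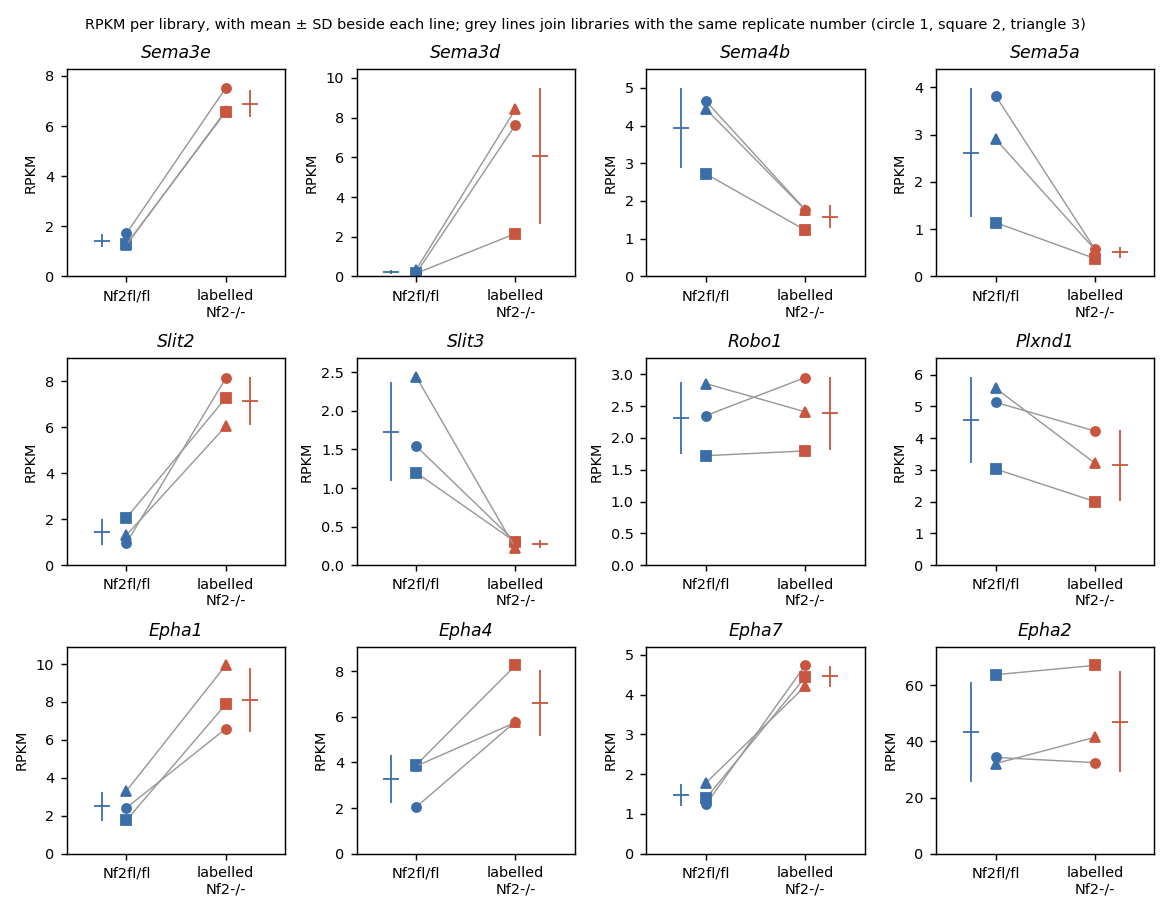
RPKM per library (y axis from 0) for 12 members, with grey lines joining libraries of the same replicate number and the mean ± SD (n = 3) beside each line. Sema3e, Slit2, Epha1 and Epha7 are higher in every replicate number, Slit3, Sema4b and Sema5a are lower in every one, and Robo1 and Epha2 overlap between the lines.

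Plexins, the signalling receptors of semaphorins, were the most abundant receptor family by summed level. Plxnb2, a receptor of class 4 semaphorins, stood at 76.9, 75.2 and 86.1 RPKM in the control libraries and at 97.5, 93.96 and 96.0 RPKM in those labelled MEF Nf2-/-. The lines did not overlap, but the log2 fold change of 0.27 ± 0.09 (SE, n = 3 and 3) did not pass (limma adjusted p = 0.366, and 0.102 with the block). Plxna1, 10.7% of whose exon bases are shared with Gm26811, read 41.2 to 48.5 RPKM against 46.2 to 54.4 RPKM. The sum of the 9 plexins was 135 to 151 RPKM in the control and 158 to 165 RPKM in the other line, ranges that did not overlap. Plxnb2 and Plxna1, neither of them called in either fit, made up most of that sum. Of the 6 tested plexins, 3 had a higher and 3 a lower log2 fold change.

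Plxnb1, a receptor of Sema4d, read 2.54, 1.82 and 3.87 RPKM in the control libraries and 6.51, 3.02 and 6.85 RPKM in those labelled MEF Nf2-/-. Within each replicate number the second line was higher, although the low replicate 2 library made the lines overlap, and the log2 fold change of 0.76 ± 0.31 (SE, n = 3 and 3) did not pass over the 6 libraries without the block (limma adjusted p = 0.482), and passed with the block (0.0240) or without replicate 2 of both lines (0.0321). Of its exon bases, 2.68% are shared with Gm7628. Plxna3, which pairs with neuropilins, was lower, at 7.31, 5.43 and 9.54 RPKM in the control and 4.34, 3.87 and 4.53 RPKM in the other line. No library overlapped, with a log2 fold change of -0.66 ± 0.18 (limma adjusted p = 0.229, and 0.0283 with the block).

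Plexin D1 and the neuropilins were called in neither fit. Plxnd1, the direct receptor of Sema3e, stood at 5.13, 3.03 and 5.57 RPKM in the control libraries and at 4.23, 2.003 and 3.21 RPKM in those labelled MEF Nf2-/-. The lines overlapped, with a log2 fold change of -0.43 ± 0.26 (SE, n = 3 and 3, limma adjusted p = 0.743, and 0.0557 with the block). Neuropilin 1 (Nrp1) read 12.2, 13.5 and 12.5 RPKM against 11.8, 9.57 and 10.8 RPKM, lower in the second line without overlap, and its log2 fold change of -0.23 ± 0.10 did not pass (limma adjusted p = 0.543). Nrp2 ran from 2.85 to 4.29 RPKM in the control and from 2.49 to 4.01 RPKM in the other line. The neuropilin sum was 16.0 to 16.5 RPKM in the control and 12.1 to 15.8 RPKM in the other line, ranges that did not overlap.

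Robo1, the single Slit receptor that passed the filter, was not called. It read 2.35, 1.72 and 2.86 RPKM in the control libraries and 2.95, 1.80 and 2.41 RPKM in those labelled MEF Nf2-/-. The lines overlapped, with a log2 fold change of 0.03 ± 0.18 (SE, n = 3 and 3, limma adjusted p = 0.996). Among netrin receptors, neogenin (Neo1) stood at 9.58 to 12.6 RPKM against 10.8 to 15.0 RPKM and Unc5c at 3.46 to 6.29 RPKM against 4.69 to 6.68 RPKM. Unc5b read 16.7, 60.7 and 22.0 RPKM against 17.2, 29.2 and 20.5 RPKM, so that replicate 2 was highest in both lines and a single control library set the spread. None of the 3 was called in either fit.

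**Figure D4:**
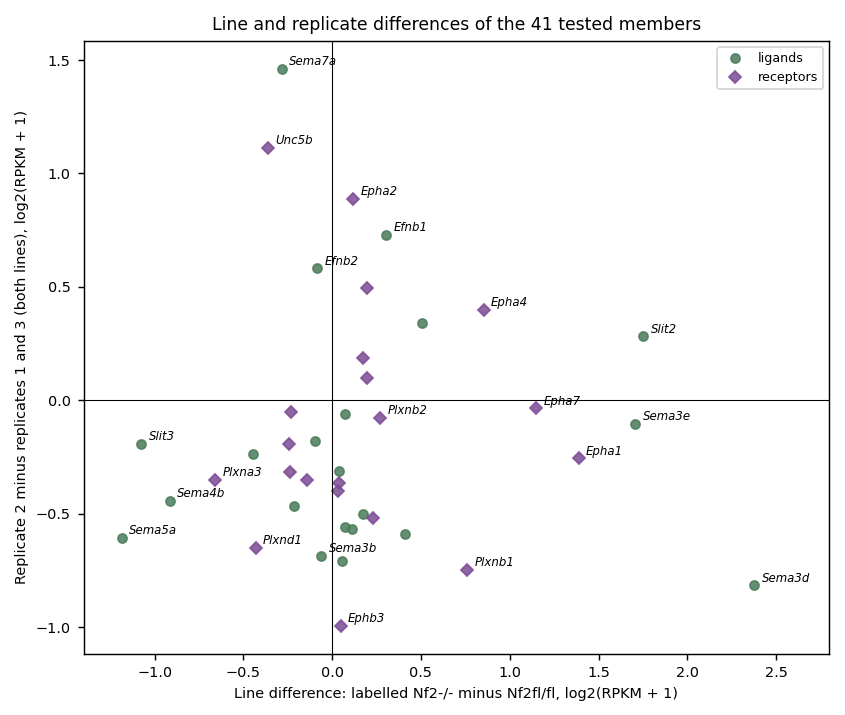
Each of the 41 tested members by its difference between the lines (x axis, labelled MEF Nf2-/- minus MEF Nf2fl/fl) and its difference between replicate 2 and the mean of replicates 1 and 3 (y axis), both on the log2(RPKM + 1) scale, with ligands as circles and receptors as diamonds. Sema3e and Epha7 lie far out on the x axis and near 0 on the y axis, Sema7a, Unc5b and Epha2 do the reverse, and Sema3d and Plxnb1 differ on both.

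The replicate difference touched these genes as widely as it touched the whole table. Both replicate 2 libraries lay above the other 4 for 6 members (Efnb1, Efnb2, Epha2, Sema7a, Unc5b and Unc5c) and below them for 13, against 16.8% and 29.8% of all tested genes.

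Another 25 members stayed under the filter, 12 ligands and 13 receptors. Of these, 9 were under 0.1 RPKM in all 6 libraries, among them the netrin receptor Dcc and the endothelial Robo4. Only 3 reached 1 RPKM in any library. Sema4d, the ligand of Plxnb1, read 0.551, 0.549 and 0.510 RPKM in the control libraries and 0.922, 0.945 and 1.03 RPKM in those labelled MEF Nf2-/-, without overlap. Efnb3 read 0.805 to 0.895 RPKM against 0.903 to 1.13 RPKM, also without overlap, and Ntn4 read 0.507 to 0.860 RPKM against 0.845 to 1.42 RPKM. None was tested. In this low range the lines did not overlap for 8 of the 25 members, 4 in each direction, beside 9.42% of all genes under the filter with a value above 0.

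The cytoplasmic proteins that act below these receptors were read as a list of 48 genes, with values for 47. This list and the next were also chosen with earlier results of these data known. Tests were run on 42, of which 2 passed (background 1.06%). Ablim1, an actin-binding protein linked to netrin signalling, rose from 7.77, 7.05 and 10.0 RPKM to 17.7, 18.6 and 16.1 RPKM, with a log2 fold change of 1.00 ± 0.14 (SE, n = 3 and 3, limma adjusted p = 0.0329). Pak1, a kinase activated by Rac and Cdc42, fell from 10.2, 8.71 and 11.7 RPKM to 4.19, 3.92 and 5.51 RPKM, with a log2 fold change of -1.02 ± 0.15 (limma adjusted p = 0.0399). Neither gene overlapped between the lines, and neither passed with any 1 library left out other than control replicate 2.

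With the block, 8 of the 42 passed (background 7.53%), Ablim1 higher and 7 lower. Beside Pak1 these were the flavoprotein Mical2 (-0.83), which oxidizes actin, the GTPase Rras (-0.35), which plexins inactivate, the Ras GTPase-activating protein Rasa1 (-0.51), the tyrosine kinases Abl2 (-0.34) and Fyn (-0.45), and the exchange factor Trio (-0.35), all as log2 fold changes. In the order named, their limma adjusted p with the block was 0.00846, 0.0295, 0.0127, 0.0399, 0.0474 and 0.0359, and none passed over the 6 libraries without it. Without replicate 2 of both lines, Mical2 and Rasa1 passed with no block (limma adjusted p = 0.0229 and 0.0397). The median of the 42 was -0.01, equal to that of all tested genes at this rounding.

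A second list held 23 partners of the same receptors and ligands that are not members, with values for 22, and 11 were tested, of which 3 passed (background 1.06%). Flrt3, a membrane protein that binds Unc5 receptors and Robo1, rose from 0.763, 1.78 and 1.04 RPKM to 4.11, 5.67 and 3.97 RPKM (log2 fold change 1.36 ± 0.20, SE, n = 3 and 3, limma adjusted p = 0.0407). Met, the HGF receptor, which can associate with plexin B1, rose from 12.5, 12.1 and 12.7 RPKM to 18.6, 18.1 and 20.2 RPKM (0.57 ± 0.08, limma adjusted p = 0.0399). Gpc1, a glypican that binds Slits, fell from 22.9, 19.9 and 19.0 RPKM to 10.9, 9.44 and 12.8 RPKM (-0.85 ± 0.13, limma adjusted p = 0.0463).

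These 3 genes had no overlap between the lines. With the block 6 passed (background 7.53%), the others being the neogenin ligands Rgma and Rgmb and Vegfa, a ligand that neuropilins also bind, all lower. Their log2 fold changes were -0.84, -0.64 and -0.42, with limma adjusted p of 0.0184, 0.0332 and 0.0279 with the block and of 0.381, 0.252 and 0.152 without it. Rgma and Rgmb also passed with no block when control replicate 2 was left out (0.0417 and 0.0313). The median log2 fold change of the 11 was -0.19. With 1 library left out and no block, Flrt3 kept its call only without control replicate 2, and Met and Gpc1 lost theirs whichever library was left out.

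**Figure D5:**
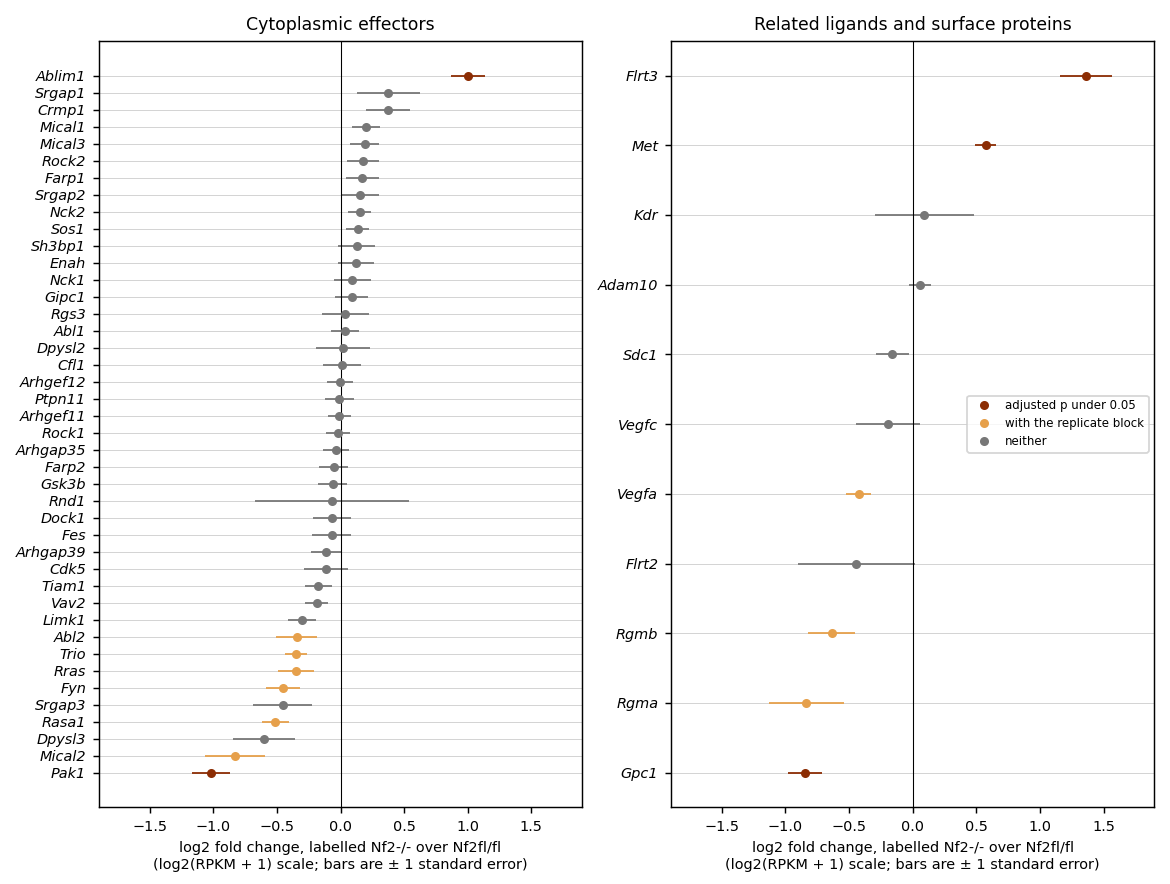
Log2 fold changes of the 42 tested cytoplasmic effectors (left) and the 11 tested related ligands and surface proteins (right), labelled MEF Nf2-/- over MEF Nf2fl/fl on the log2(RPKM + 1) scale, with bars of 1 standard error from limma (n = 3 and 3). Ablim1, Flrt3 and Met are the called genes to the right of 0, Pak1 and Gpc1 those to the left, and light points did not pass in that fit but passed with the replicate block.

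Markers were read beside these results. All 8 fibroblast markers were tested, and their summed level was 1853 to 2550 RPKM in the control libraries and 1444 to 1876 RPKM in those labelled MEF Nf2-/-. Within the list, Pdgfra fell by 2.35 and Fn1 fell by 0.63 on the log2 scale (limma adjusted p = 0.0329 and 0.0390, 2 of 8 markers, background 1.06%). With a single library left out, Pdgfra kept its call only without control replicate 2, and Fn1 lost its call each time (adjusted p of 0.0709 to 0.175). With the block 4 of the 8 passed (background 7.53%), all lower, the additions being Thy1 and Col3a1 (limma adjusted p = 0.00716 and 0.0274 with the block, and 0.178 and 0.890 without it). The 6 neuron markers in the table summed to 3.76 to 6.49 RPKM in the control and 8.79 to 12.3 RPKM in the other line, which was mostly Map2, at 2.65, 3.40 and 4.59 RPKM against 10.2, 8.08 and 10.9 RPKM (limma adjusted p = 0.0399). Map2 kept its call only without replicate 2 of the line labelled MEF Nf2-/- (adjusted p of 0.0450 to 0.168 over the single libraries left out). Tubb3, the other tested neuron marker, read 0.954, 2.31 and 1.76 RPKM against 0.917, 0.638 and 1.31 RPKM, with a log2 fold change of -0.43 ± 0.23 (limma adjusted p = 0.664). Rbfox3, Syp, Elavl3 and Elavl4, which define neurons, stayed at or near 0. The part of these marker differences in the guidance results was not tested.

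Defining markers of other cell types were near 0 in both lines. Of the 6 endothelial markers 5 were under 0.5 RPKM in all libraries, the exception being Kdr, and of the 5 macrophage markers 4 were, the exception being Cd68. All 5 glial and all 5 epithelial markers were under 0.5 RPKM throughout, and 4 of the 5 skeletal muscle markers with values were, with Acta1 reaching 6.25 RPKM in control replicate 2.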

How the data were processed

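RNA of 3 libraries of each line was sequenced. The authors deposited 1 table of 26231 genes, whose values are read here as RPKM from their sums and steps. Per the submitters' processing notes the build was mm10, while the aligner, the counter and the use of strand are not given in the sources used here. No column of values went unassigned. Of the values worth up to 20 reads, 83.6% to 85.4% were whole reads within 0.05, against 10% by chance, and the step gave the depth. For RPKM this depth is an estimate, so no counting interval is given.

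Values were set to log2(RPKM + 1) and fitted over all 11067 genes with limma 3.58.1 (R 4.3.3, trend and robust settings, two-sided, Benjamini-Hochberg, threshold 0.05), after the unpaired test and log step of the study's methods. The fit was tested on simulated data. The deviations of same-numbered libraries from the mean of their line correlated across genes at 0.55, 0.82 and 0.52 for replicates 1, 2 and 3. All were over 0.1, so a second fit was blocked on that number, and its values stand beside the calls it changed. Replicate 2 stood apart in both lines, and with deviations from the mean this alone can correlate replicates 1 and 3. Libraries of different numbers were not correlated, so whether replicates 1 and 3 are pairs was not tested. The members and gene lists were chosen with earlier results of these data known. Named are Nf2, members past the threshold in either fit, tested members with a mean of at least 5 RPKM in a line or without overlap, members under the filter that reached 1 RPKM, listed genes past the threshold in either fit, and known partners. Other genes named, such as Zyx and single markers, were chosen after their values were seen. Coordinates come from GENCODE vM21 (GRCm38) and figures from matplotlib 3.10.9. Alternatives changed the variance model, normalization, pseudocount, filter, block, 2018 mark and libraries.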

Additional observations from a re-analysis of the deposited data

How the results depend on the processing

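With 3 libraries a line, calls depended on single libraries. Among the 41 members, 4 passed, 1 without control replicate 1 or 3 or replicate 1 or 3 of the line labelled MEF Nf2-/- (Sema3e each time), 7 without control replicate 2 (Sema4b, Sema5a and Slit3 gained), and 4 without its counterpart, where Epha1 was lost and Sema3d gained. Without replicate 1 or 3 of both lines limma called 0 genes of any kind (11 and 9 members had an unadjusted p under 0.05), while 11 members were called without replicate 2 (those of the blocked fit with Sema3a in place of Epha4), so the range was 0 to 11. Leaving libraries out gave 0 to 484 genes in all, 0 to 7 ligands, 0 to 4 receptors, 0 to 4 effectors and 0 to 5 related genes. With the replicate block limma called 833 genes in place of 117, including all 117, and 11 members, 6 ligands, 5 receptors, 8 effectors and 6 related genes. With no filter on low values it called 9 genes, 1 member, 1 ligand, 0 receptors, 0 effectors and 0 related genes (18 members at an unadjusted p under 0.05), where more genes were tested. With at least 5 RPKM in 3 libraries it called 63 genes, 1 receptor and 1 related gene, where 20 members were tested. With the 2018 mark as a covariate it called 62 genes, 1 effector and 0 related genes, and the same 4 members. Quantile normalization, median centring and a pseudocount of 0.1 each gave 4 ligands, adding Sema3d and Slit3, and 2 related genes, losing Flrt3 (adjusted p of 0.0625, 0.0508 and 0.0501). The cause of these changes was not tested.

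Directions held for Sema3e, Slit2, Epha1 and Epha7 in all alternatives that tested them. Leaving out libraries turned the sign of Nf2 (log2 fold changes from -0.030 to 0.091, with -0.030 without replicate 1 of the line labelled MEF Nf2-/- and -0.0015 without replicate 1 of both), Efna4 (-0.19 to 0.38), Efna5 (-0.015 to 0.14), Efnb2 (-0.30 to 0.086), Epha2 (-0.17 to 0.42), Ephb3 (-0.24 to 0.42), Neo1 (-0.0074 to 0.36), Sema3c (-0.38 to 0.16) and Unc5b (-0.73 to 0.17), none of them called. The signs of Efna2 (-0.05 to 0.37), Ephb6 (-0.28 to 0.30), Ntn1 (-0.11 to 0.19), Robo1 (-0.10 to 0.16), Sema3b (-0.28 to 0.18), Sema4c (-0.08 to 0.34) and Sema7a (-0.86 to 0.13) also turned. With libraries left out, the medians ran from -0.02 to 0.16 for ligands and from -0.02 to 0.15 for receptors, and with at least 5 RPKM in 3 libraries they were 0.30 and 0.17. Of 687 refitted values of 41 single genes, 554 kept direction and side of the threshold, 40 newly passed, 74 no longer passed and 19 changed sign. Depth limits what can be read from members near 0, such as Dcc, with at most 4.9 estimated reads in replicates 1 and 2.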
